A study of Mus musculus with 4 samples.

Results

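The 10 genes described here encode the transcription factors around which heart muscle is specified: *Nkx2-5*, *Gata4*, *Gata5*, *Gata6*, *Hand1*, *Hand2*, *Mef2c*, *Isl1*, *Shox2* and *Hopx*. They were taken by their symbols from the gene list of the deposited count matrices, and all 10 were found among its 32285 genes. In embryonic hearts at E10.5, *Nkx2-5* and *Hopx* were largely a cardiomyocyte (CM) signal, the GATA and HAND genes were highest outside the myocardium, and *Shox2* was concentrated in 134 sinus venosus-like CMs and in 390 CMs of a cluster led by *Calca* and *Sln*. None of the 10 passed the test across all genes between control and *Tie2-cko* hearts in any of 21 cell classes. A fit that compared the genotypes within 2 pairs of libraries called 8 of 196 tests of members, 7 higher in *Tie2-cko* and 1 lower. Of all tests of all genes, that fit called 0.297% higher and 0.335% lower.

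These factors act as a network. NKX2-5, the GATA factors, MEF2C and the HAND factors bind together at the regulatory DNA of contractile and natriuretic peptide genes, ISL1 marks progenitors of the second heart field that add the outflow tract and the venous pole, and SHOX2 keeps the sinus venosus and its pacemaker cells apart from the working myocardium by opposing NKX2-5. HOPX has a homeodomain but does not itself bind DNA, and works through partner proteins. The endocardium, the inner lining of the heart, also uses several of the same factors when it forms the cushions from which valves arise.

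The study deleted *Tek*, the gene of the receptor TIE2, from endocardial cells (EdCs), and asked what this does to the hearts at the stage when trabeculae grow. Whole cardiogenic regions were dissected at E10.5, dissociated and profiled cell by cell by RNA sequencing in droplets (10x Genomics); the control genotype has 2 libraries, numbered 5 and 7, and *Tie2-cko* has 2, numbered 6 and 8. Control embryos were *Tie2flfl*, with both copies of the gene floxed and no Cre; *Tie2-cko* embryos were *Nfatcre-Tie2flfl*, the same floxed alleles with Cre from a constitutive knock-in at *Nfatc1*, a gene of the endocardium, so that other cells of the heart were expected to keep TIE2. All embryos, of either sex, had a mixed genetic background of 129 and C57/BL6, and the methods say that the hearts came from the same litter and that libraries matched by somite number were run in one lane for both genotypes; they do not name the matching libraries or say whether a library is 1 heart. P-values therefore measure the spread between these libraries.

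The matrices held 8877 to 18488 barcodes and 169361996 to 259775540 unique molecular identifiers (UMIs, counted RNA molecules) per library. After filters and removal of doublets, 5684 to 10097 cells per library were kept, with a median of 14898 to 25740 UMIs per cell. Libraries 5 and 6 stood apart from libraries 7 and 8: foregut mesenchyme-like cells numbered 538 and 563 in libraries 5 and 6 but 3 and 5 in libraries 7 and 8, and the CMs of the ventricular-like and atrial-like regions fell into separate clusters for libraries 5 and 6 and for libraries 7 and 8. Each pair holds 1 library of each genotype, and what the pairs are is not given by the labels. Between 12 and 29 barcodes of kept cells were shared by any pair of libraries. Cells were clustered without the 10 genes and 12 of their partner genes, and clusters were named "-like" from marker lists. The CM clusters had at least 7 of the 8 CM markers. Clusters that stayed unnamed are called by their leading genes, and which these are was decided after they were seen. The orders of classes below, such as highest or next, cover the 20 classes and CM regions with at least 20 cells in every library. A class with fewer such libraries enters only where it is named, and foregut mesenchyme-like cells were not ranked.

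*Tek* was measured first, as a check of the labels. In chamber EdCs its level, the mean over cells of UMIs per 10000, was 0.895 and 1.01 for the controls (5 and 7). For *Tie2-cko* (6 and 8) it was 0.133 and 0.149 (log2 fold change -2.50, SE 0.18, adjusted p = 0.0051 in the quasi-likelihood test of edgeR, adjusted by Benjamini and Hochberg's method over all genes). Cushion EdCs had 0.865 and 1.74 in the controls and 0.305 and 0.234 in *Tie2-cko* (log2 fold change -2.52, SE 0.28, adjusted p = 0.048). In vascular endothelial-like cells *Tek* was 0.635 and 0.717 in the controls and 0.774 and 0.647 in *Tie2-cko*, so that the genotypes overlapped (log2 fold change -0.12, adjusted p = 1). Cushion mesenchymal-like cells, which arise from the endocardium, had 0.175 and 0.32 in the controls and 0.0242 and 0.0157 in *Tie2-cko* (log2 fold change -3.58, SE 0.40, adjusted p = 0.605), and their genotypes did not overlap; with the block for library pairs described below the adjusted p was 4.35e-39. Whether the counted 3' ends lie inside the deleted part of the gene is not given in the sources used here.

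The start-site windows of *Hand2*, *Isl1* and *Shox2* are shown as examples that hold the letters of a GATA site or a TATA box. The levels of these genes differed widely between the cell classes described below. Windows of *Mef2c* that also hold such letters are not shown. RefSeq (GRCm38.p6) promoters were found for 7 of the 10 members in 10 windows, each the 250 bases before a start site; *Gata4*, *Gata6* and *Hand1* are named only. Capitals mark the letters GATAA (the core read by GATA factors) or TATAAA (the TATA box), or their reverse complements.
*Hand2*, chr8:57320733-57320982, forward strand: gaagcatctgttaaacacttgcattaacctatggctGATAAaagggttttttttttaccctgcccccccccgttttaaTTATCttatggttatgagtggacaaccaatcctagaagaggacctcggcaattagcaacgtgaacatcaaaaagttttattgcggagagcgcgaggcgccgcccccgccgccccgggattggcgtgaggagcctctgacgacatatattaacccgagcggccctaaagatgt
*Isl1*, chr13:116309689-116309938, reverse strand: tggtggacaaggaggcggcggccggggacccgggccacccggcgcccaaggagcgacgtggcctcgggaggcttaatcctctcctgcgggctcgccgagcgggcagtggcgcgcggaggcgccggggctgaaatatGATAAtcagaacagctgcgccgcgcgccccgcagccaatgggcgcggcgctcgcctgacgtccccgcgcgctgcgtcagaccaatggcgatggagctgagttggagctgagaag
*Shox2*, chr3:66981772-66982021, reverse strand: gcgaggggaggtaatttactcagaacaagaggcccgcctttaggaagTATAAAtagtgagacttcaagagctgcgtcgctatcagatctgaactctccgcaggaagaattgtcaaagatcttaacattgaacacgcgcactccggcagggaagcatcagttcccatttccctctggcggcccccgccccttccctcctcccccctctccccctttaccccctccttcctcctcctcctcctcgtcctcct
GATAA stood in 3 of the 10 windows on either strand (2 matches in that of *Hand2*, 1 in that of *Isl1* and 2 in one of *Mef2c*), against 22.6% of all 32851 promoters. TATAAA stood in 3 windows (12.4% of all promoters), the E-box CANNTG, read by HAND factors, in 7 (66.2%), and AAGTG, the core read by NKX2-5, in 5 (40.7%). GC content ran from 33.6% in a *Mef2c* window to 71.2% in that of *Isl1*. The matches are letters in a window and say nothing of binding in these cells.

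*Nkx2-5*, the homeobox gene whose loss stops heart tube development, was a gene of CMs. Over all 12200 CMs its level was 1.95, 2.15, 1.93 and 1.79 UMIs per 10000 in libraries 5, 6, 7 and 8 (1.95 ± 0.146, SD, n = 4). The highest regions were the atrioventricular canal (AVC)-like CMs (3.48, 3.76, 3.32 and 2.81) and a small atrial-type cluster led by *Osr1* and *Fabp4* (3.09, 4.19, 3.23 and 2.64). The libraries of these 2 regions overlapped, and all of them lay above the next region, the outflow tract (OFT)-like CMs, at 2.34 ± 0.173 (n = 4). Atrial-like, ventricular-like and trabecular-like CMs followed at 2.14 ± 0.26, 1.69 ± 0.191 and 1.36 ± 0.104 (n = 4 each), and no neighbours in the order from OFT-like to trabecular-like CMs were separated.

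The exception among CMs was the sinus venosus-like region, the muscle of the venous inlet, where *Nkx2-5* was 0.214, 0.247 and 0.116 in libraries 5, 6 and 7 (0.192 ± 0.0679, n = 3; library 8 had only 8 such cells). With every cell thinned to 5500 UMIs, a *Nkx2-5* UMI was found in 1.82% of these cells (mean of 2 libraries), in 62% of all CMs and in 2.37% of red blood cells, which should lack the gene. The thinned share in sinus venosus-like CMs, which rests on 2 libraries, was no higher than that of red blood cells, whereas the level in each of their 3 libraries was above every library of red blood cells (0.0446, 0.0394, 0.0867 and 0.0668). Unthinned, the share was 90.8% to 94.3% per library in CMs (median depths 21495 to 47662 UMIs per cell), 19.3% and 11.4% in the sinus venosus-like CMs of libraries 5 and 6 (12275 and 22205.5 UMIs) and 11.7% to 14.6% in red blood cells (22799 to 60176 UMIs). Thinning left out the 51, 133, 61 and 61 shallower CMs of libraries 5, 6, 7 and 8.

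Outside the myocardium *Nkx2-5* reached 0.574 ± 0.105 (n = 4) in an unnamed cluster led by *Phlda2*, *Hand1* and *Eln*, 0.374 ± 0.1 (n = 3) in a small cluster led by *Foxe1* and *Pax8*, and 0.218 ± 0.112 in the *Pax9* *Sox2* epithelium-like cells; no other class outside the myocardium had a mean above 0.212. Free RNA from broken CMs can add such counts, and the ratio to *Tnnt2*, the CM troponin gene, was used to read them. In the CMs of libraries 5, 6, 7 and 8 there were 37.6, 42.6, 37.3 and 37.7 *Nkx2-5* UMIs per 1000 *Tnnt2* UMIs. Red blood cells had 40.5, 58, 44.8 and 47.1, each above the CMs of the same library, and the *Phlda2* *Eln* cluster had 41.4, 39.8, 29.5 and 39.1, above the CMs in libraries 5 and 8 and below them in libraries 6 and 7. In the *Pax9* *Sox2* epithelium-like cells the ratio was 117 to 342 and in pharyngeal mesenchyme-like cells 66.5 to 250, above that of CMs in every library.

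**Figure D1:**
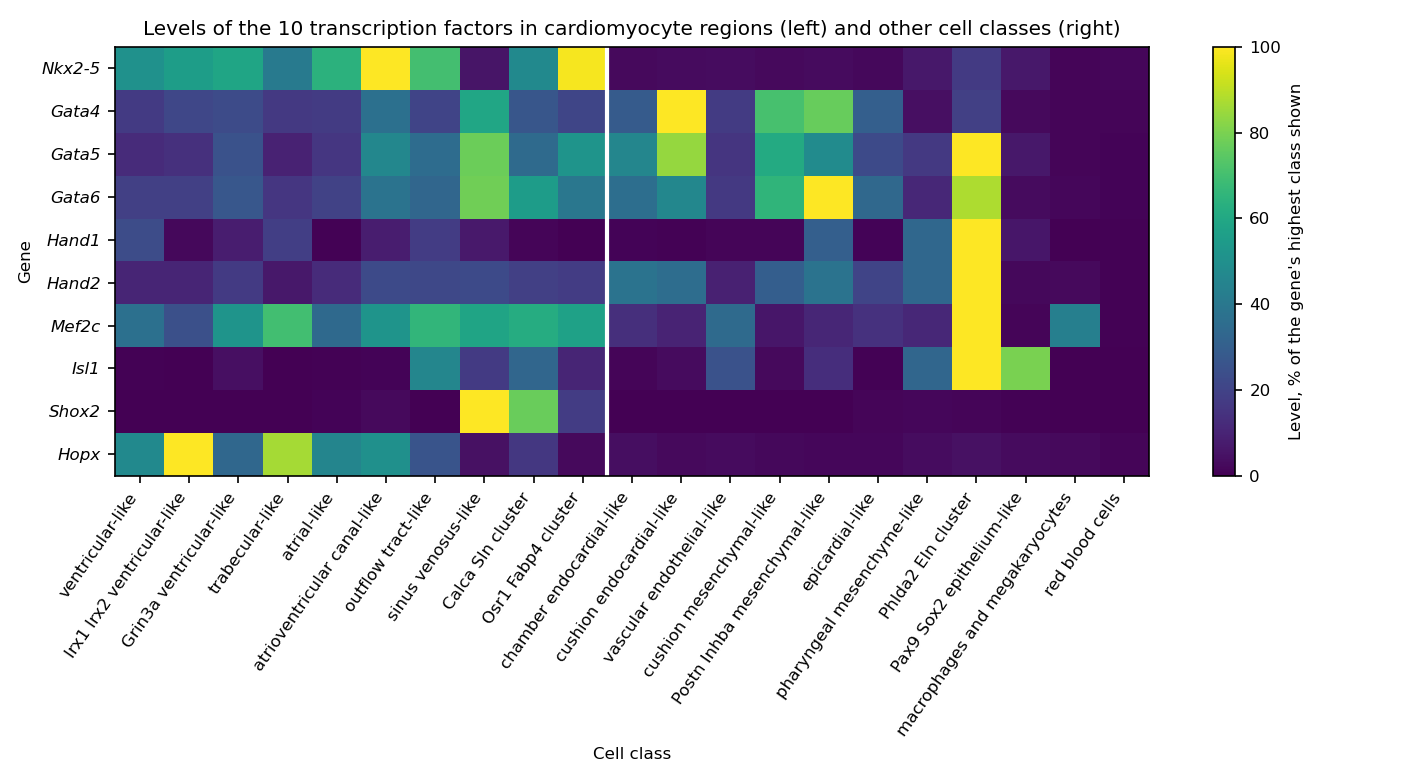
Level of each gene in 10 CM regions (left of the white line) and 11 other cell classes (right), as a percent of the gene's highest class shown, from 0 (dark) to 100 (yellow). *Nkx2-5* and *Hopx* are bright in CM regions, while 6 of the 10 rows, among them *Hand1*, *Hand2* and *Isl1*, have their brightest cell in the *Phlda2* *Eln* cluster or the *Postn* *Inhba* mesenchymal-like cells.

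The 3 GATA zinc finger genes reached their highest levels outside the myocardium. *Gata4*, which is needed for the heart tube to close and for the cushions to form, was highest in cushion EdCs, at 1.56, 1.9, 1.36 and 1.37 UMIs per 10000 in libraries 5, 6, 7 and 8 (1.55 ± 0.25, n = 4). All CMs together had 0.318, 0.383, 0.287 and 0.285, so that every library of cushion EdCs lay above every library of CMs. Chamber EdCs, the lining of the atria and ventricles, had 0.488, 0.545, 0.356 and 0.378. The *Postn* *Inhba* mesenchymal-like cells (1.19 ± 0.273) and the cushion mesenchymal-like cells (1.1 ± 0.186) came next, and these 3 classes overlapped from one to the next.

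Among CM regions *Gata4* was highest in the sinus venosus-like CMs, at 0.714, 1.25 and 0.794 in libraries 5, 6 and 7. AVC-like CMs followed at 0.57 ± 0.0789 (n = 4). The leading genes of the sinus venosus-like region also included the collagen genes *Col3a1*, *Col1a1* and *Col1a2*. Whether cells of other kinds add to its *Gata4*, *Gata5* and *Gata6* was not tested. In 3 of the other regions, ventricular-like, trabecular-like and atrial-like CMs, the means lay between 0.258 and 0.27. *Gata4* was also read in epicardial-like cells, at 0.469 ± 0.112 (n = 4).

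*Gata5*, a partly redundant relative expressed in the endocardium and its precursors, peaked in the *Phlda2* *Eln* cluster at 1.05, 1.2, 0.894 and 0.913 (1.01 ± 0.143, n = 4), which overlapped cushion EdCs at 0.96, 0.972, 0.733 and 0.736. Cushion EdCs in turn lay above the cushion mesenchymal-like cells (0.616 ± 0.0918) in every library. CMs as a whole had 0.205 ± 0.0248, and among their regions the level ran from 0.0956 ± 0.0113 in trabecular-like CMs to 0.785 in the 3 usable libraries of sinus venosus-like CMs.

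*Gata6*, which acts beside *Gata4* in the outflow tract and the smooth muscle of the great arteries, was highest in the *Postn* *Inhba* mesenchymal-like cells, at 4.1, 4.41, 3.68 and 4.1 (4.07 ± 0.3, n = 4). The *Phlda2* *Eln* cluster followed at 3.57 ± 0.104, and its libraries, from 3.51 to 3.72, lay above all those of the cushion mesenchymal-like cells, from 2.5 to 2.93. In CMs *Gata6* was 0.977, 1.04, 0.956 and 0.972. Like *Gata4*, it was highest among CM regions in the sinus venosus-like CMs, at 2.52, 3.07 and 3.96 in libraries 5, 6 and 7. The *Calca* *Sln* cluster, which had all 6 atrial markers and 3 of the 5 sinus venosus markers, had 2.08, 2.98, 2.08 and 1.86, and ventricular-like CMs had 0.764 ± 0.0352.

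*Hand1*, a basic helix-loop-helix gene of the outer curvature of the left ventricle, had its highest level in the *Phlda2* *Eln* cluster, at 4.67, 4.52, 4.56 and 4.43 UMIs per 10000 (4.54 ± 0.0989, n = 4). This was 2.99 times the next class, pharyngeal mesenchyme-like cells, where the libraries were spread over 1.47, 2.72, 0.971 and 0.934. *Hand1* was among the leading genes of the *Phlda2* *Eln* cluster, which also had *Bmp4*, *Rgs5*, *Eln* and *Cxcl12* among them; the level is therefore a description of that cluster and not a test.

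The ventricle held most of the myocardial *Hand1*. Ventricular-like CMs had 0.965, 1.02, 1.13 and 1.13 (1.06 ± 0.0829, n = 4), and trabecular-like (0.844 ± 0.235) and OFT-like CMs (0.809 ± 0.101) overlapped them or each other. A ventricular-like region with high *Irx1* and *Irx2* had 0.0969 ± 0.0383, less than any library of the ventricular-like CMs, and atrial-like CMs had 0.027 ± 0.00708. With cells thinned to 5500 UMIs, a *Hand1* UMI was found in 38.4% of ventricular-like, 4.24% of *Irx1* *Irx2* ventricular-like, 1.25% of atrial-like CMs and 1.16% of red blood cells.

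*Hand1* also told the mesenchymal classes apart. The *Postn* *Inhba* mesenchymal-like cells had 1.82, 1.12, 1.55 and 0.984, and the cushion mesenchymal-like cells, which share all 8 cushion markers with them, had 0.0542, 0.054, 0.0883 and 0.0678. Both EdC classes and the epicardial-like cells were at most 0.0605 in every library.

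*Hand2*, the relative of *Hand1* that serves the right ventricle, the outflow tract and the endocardium, was likewise highest in the *Phlda2* *Eln* cluster, at 5.93, 5.71, 3.51 and 3.62 (4.69 ± 1.3, n = 4), where libraries 5 and 6 lay above libraries 7 and 8. Unlike *Hand1*, it was read in all endocardial and cushion classes: 1.78 ± 0.294 in chamber EdCs, 1.68 ± 0.125 in cushion EdCs, 1.41 ± 0.107 in cushion mesenchymal-like cells and 1.79 ± 0.196 in *Postn* *Inhba* mesenchymal-like cells. All of these classes overlapped one another. Vascular endothelial-like cells had 0.342, 0.238, 0.569 and 0.602, below every library of both EdC classes. Trabecular-like CMs had the lowest level of all CM regions, 0.375, 0.248, 0.314 and 0.273, less than in every library of ventricular-like CMs (0.41, 0.544, 0.521 and 0.482).

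*Mef2c*, a MADS-box gene that switches on muscle genes, had a broad pattern. The *Phlda2* *Eln* cluster was highest (5.05, 4.63, 3.71 and 4.3), followed by trabecular-like CMs (2.55, 4.18, 2.52 and 3.05), OFT-like CMs (2.9, 2.94, 2.75 and 3.04) and the *Calca* *Sln* cluster (2.73 ± 0.375, n = 4). These overlapped from one to the next. The *Irx1* *Irx2* ventricular-like region was the lowest among CMs, at 1.08 ± 0.113, and all its libraries lay below those of atrial-like CMs, at 1.51 ± 0.108. *Mef2c* also stood out in blood-derived cells: macrophages and megakaryocytes had 1.61, 1.45, 1.91 and 2.66, and a thinned share of 48.2% of cells, against 1.41% in red blood cells. It separated the endothelia, with 1.56, 1.52, 1.39 and 1.67 in vascular endothelial-like cells and 0.576 to 0.616 in chamber EdCs.

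*Isl1*, the LIM-homeobox gene of second heart field progenitors, was at 0.136 ± 0.00776 (n = 4) over all CMs and, within them, concentrated in a few regions. OFT-like CMs had 0.973, 1.36, 0.94 and 1.07, and the *Calca* *Sln* cluster had 1, 0.975, 0.735 and 0.429. Ventricular-like CMs had 0.0122 ± 0.00383. Outside the myocardium the *Foxe1* *Pax8* cluster had 2.9, 4.51 and 2.91 in the 3 libraries with at least 20 of its cells. Of the ranked classes, the *Phlda2* *Eln* cluster (2.45, 2.67, 2.14 and 2.27) and the *Pax9* *Sox2* epithelium-like cells (1.67, 1.35, 2.16 and 2.41) were highest and overlapped each other. Over all barcodes library 6 had 5347 *Isl1* UMIs, of which its CMs held 824 and its *Phlda2* *Eln* cluster 236. Other unranked classes, such as foregut mesenchyme-like cells, are not described here and may hold much *Isl1*. Vascular endothelial-like cells were uneven, at 0.297, 0.244, 0.758 and 1.08, with both of libraries 7 and 8 above both of libraries 5 and 6.

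*Shox2*, the homeobox gene of the sinus venosus and pacemaker muscle, had the narrowest pattern. Sinus venosus-like CMs had 7.64, 8.85 and 6.91 UMIs per 10000 in libraries 5, 6 and 7 (7.8 ± 0.98, n = 3), and the *Calca* *Sln* cluster had 6.71, 7.44, 5.63 and 4.35 (6.03 ± 1.35, n = 4). The *Osr1* *Fabp4* cluster followed at 1.38 ± 0.393, 7.46 times the AVC-like CMs at 0.185 ± 0.0712. No other class exceeded 0.308 in a library with at least 20 of its cells. In ventricular-like CMs it was 0.00972 ± 0.00293.

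These 3 regions differed in whether *Shox2* came with *Nkx2-5*. In sinus venosus-like CMs 96.6% of thinned cells had a *Shox2* UMI and 1.82% one of *Nkx2-5*. In the *Calca* *Sln* cluster 89% had one of *Shox2* and 49.6% one of *Nkx2-5*, and in the *Osr1* *Fabp4* cluster 24.3% and 78.7%. Within the *Calca* *Sln* cluster the cells with both numbered 166, where independence of the 2 genes would give 167 (381 cells), so no avoidance was seen between single cells of that cluster. *Shox2* was among the leading genes of the sinus venosus-like and *Calca* *Sln* clusters, although it was not used to form them.

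**Figure D2:**
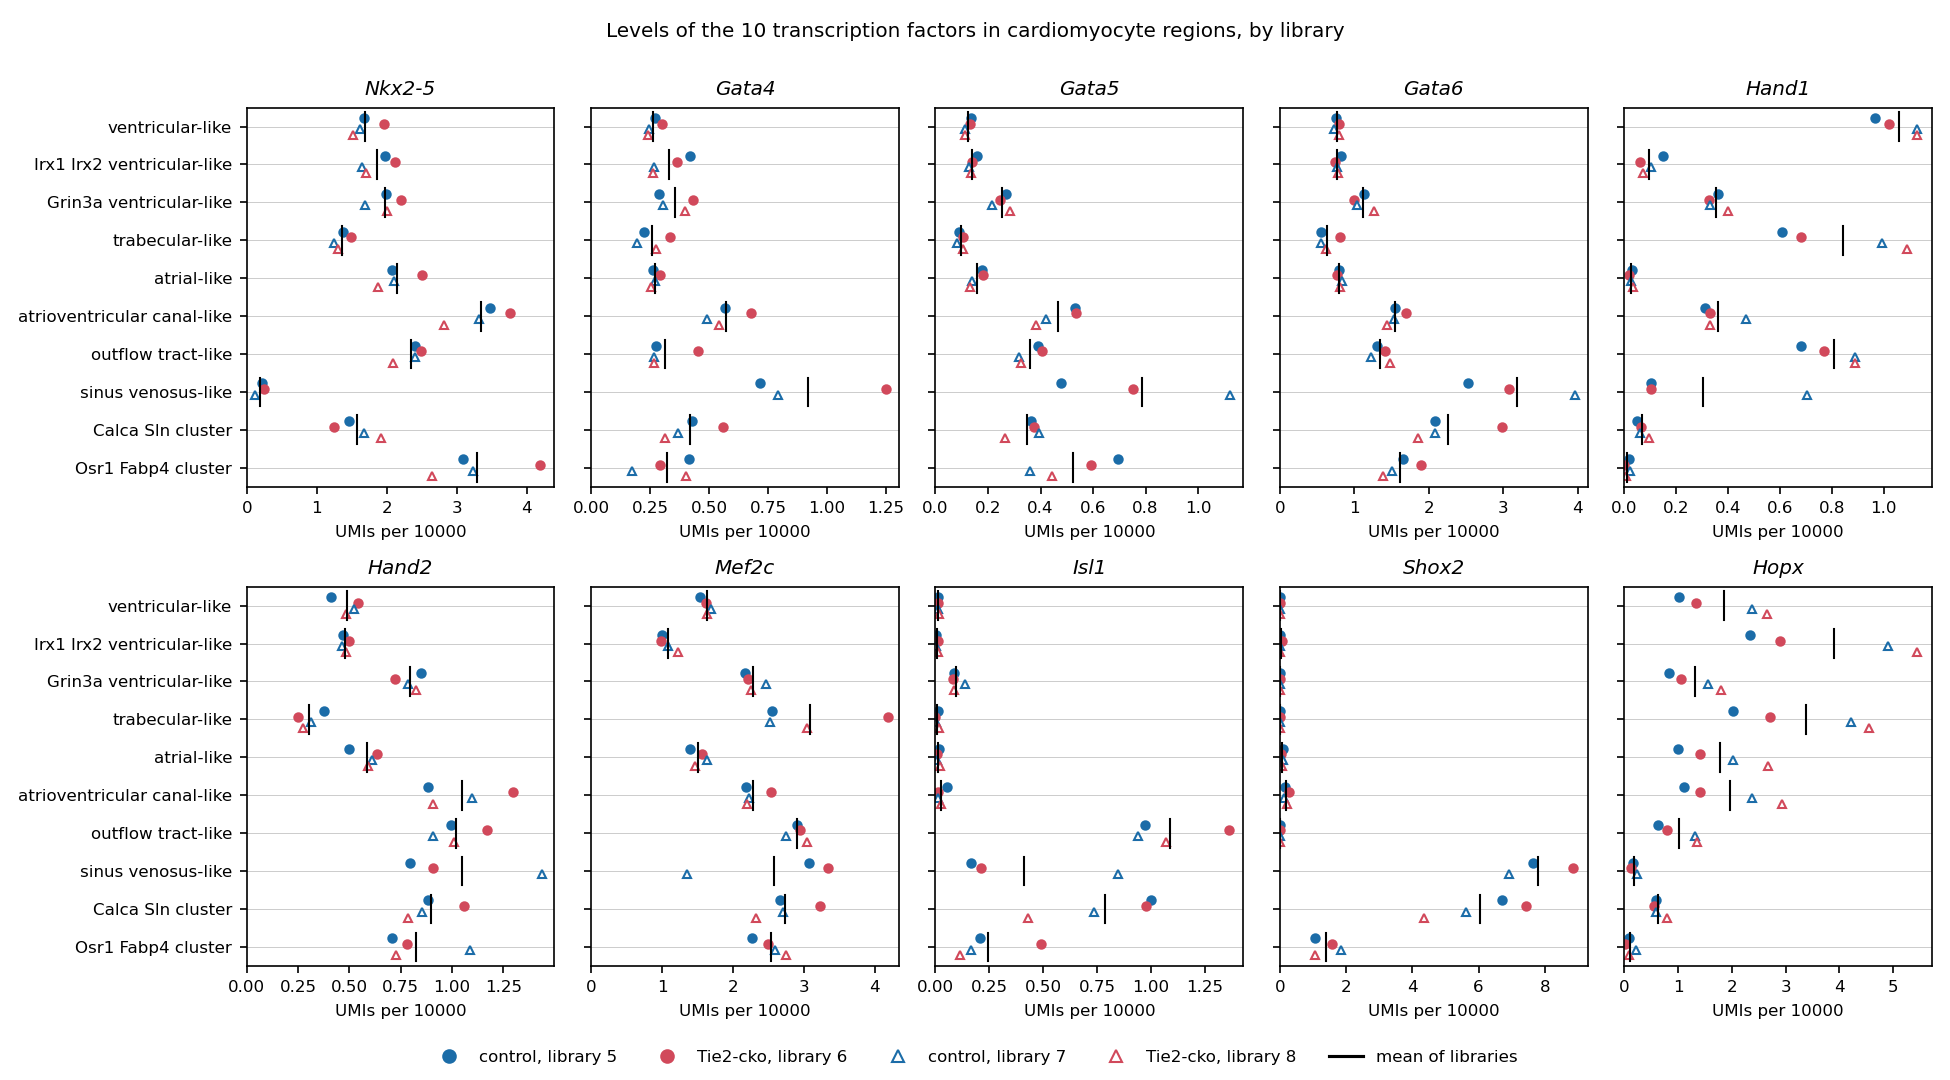
Mean UMIs per 10000 of each gene (horizontal axis, scaled per gene from 0) in 10 CM regions, with 1 point per library: circles for libraries 5 and 6, triangles for 7 and 8, blue for control, red for *Tie2-cko*, and a black line at the mean. *Shox2* lies near 0 outside the sinus venosus-like, *Calca* *Sln* and *Osr1* *Fabp4* regions, and in *Hopx* the triangles lie to the right of the circles in most regions.

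*Hopx*, a homeodomain-only cofactor that restrains growth of the myocardium, had its lowest means among CM regions in the 3 regions where *Shox2* was highest. Over 29 cell classes, by the correlation described below, the 2 genes had r = 0.00. *Hopx* was highest in the *Irx1* *Irx2* ventricular-like CMs, at 2.33, 2.9, 4.91 and 5.45 UMIs per 10000 (3.9 ± 1.52, n = 4), and in trabecular-like CMs, at 2.02, 2.71, 4.21 and 4.55 (3.38 ± 1.21). Ventricular-like, atrial-like and AVC-like CMs were at 1.85 ± 0.799, 1.78 ± 0.732 and 1.96 ± 0.848. The *Calca* *Sln* cluster was at 0.635 ± 0.11, sinus venosus-like CMs at 0.174 ± 0.0574 (n = 3) and the *Osr1* *Fabp4* cluster at 0.106 ± 0.0801. The large SDs reflect 1 split: in all 9 CM regions with 4 libraries, both of libraries 7 and 8 were above both of libraries 5 and 6.

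In all CMs *Hopx* was 1.01 and 1.34 in libraries 5 and 6 and 2.32 and 2.62 in libraries 7 and 8, a ratio of 2.1 between the means of the pairs. Of 15569 genes in CMs, 3.97% were likewise higher in libraries 7 and 8 without overlap and by at least 1.5 times. A lack of overlap alone is common: on UMIs summed over cells, 66.9% of the genes did not overlap between the pairs in either direction, and the same held for 7 of the 10 members, all but *Gata6*, *Hand2* and *Isl1*. By level over all CMs, *Shox2* went the other way, with a ratio of 0.527, while the other members had ratios from 0.815 to 1.17. Within regions the *Shox2* ratio was 0.705 in the *Calca* *Sln* cluster and 1.12 in the *Osr1* *Fabp4* cluster. Sinus venosus-like CMs, where *Shox2* was highest, numbered 57 and 44 in libraries 5 and 6 and 25 and 8 in libraries 7 and 8. The part of these cell numbers in the ratio of 0.527 was not tested. In red blood cells *Hopx* was low but its libraries split as they did in CMs, at 0.0255, 0.0172, 0.0963 and 0.0931. Per 1000 *Tnnt2* UMIs, *Hopx* in red blood cells was 20.4, 24.3, 52.9 and 64.6 and in CMs 20.9, 29, 50.5 and 60, with the libraries in the same order in both. What sets the pairs apart is not given by the labels and was not tested.

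**Figure D3:**
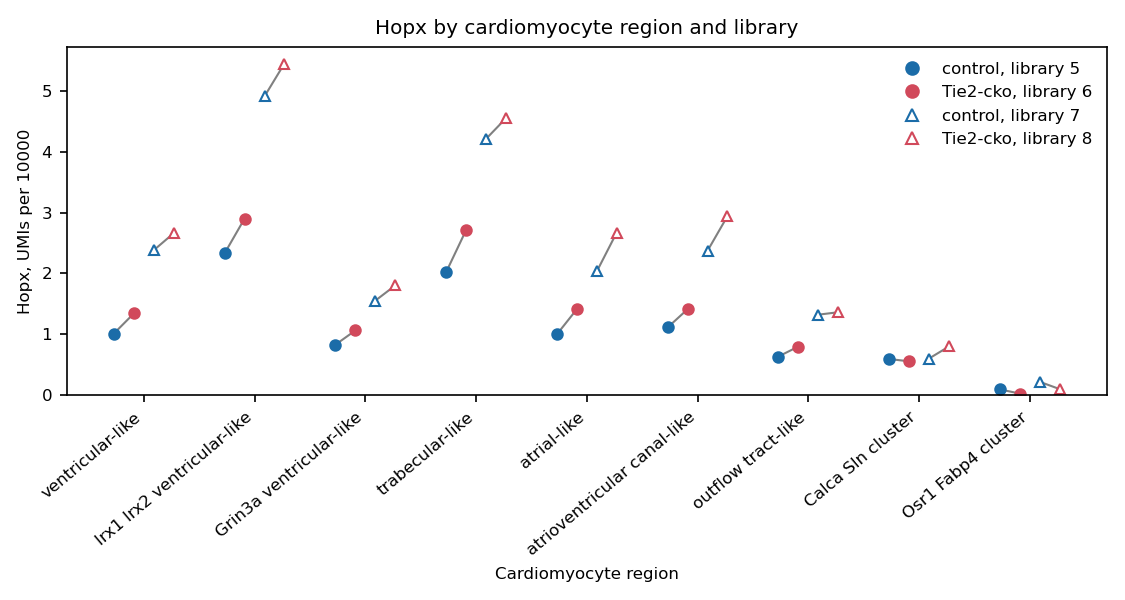
*Hopx* in UMIs per 10000 (vertical axis, from 0) in the 9 CM regions with at least 20 cells in every library, 1 point per library, with a line joining control to *Tie2-cko* within libraries 5 and 6 and within 7 and 8. Libraries 7 and 8 (triangles) lie above libraries 5 and 6 (circles) in each region, from 2.33 and 2.9 against 4.91 and 5.45 in the *Irx1* *Irx2* ventricular-like CMs.

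**Figure D4:**
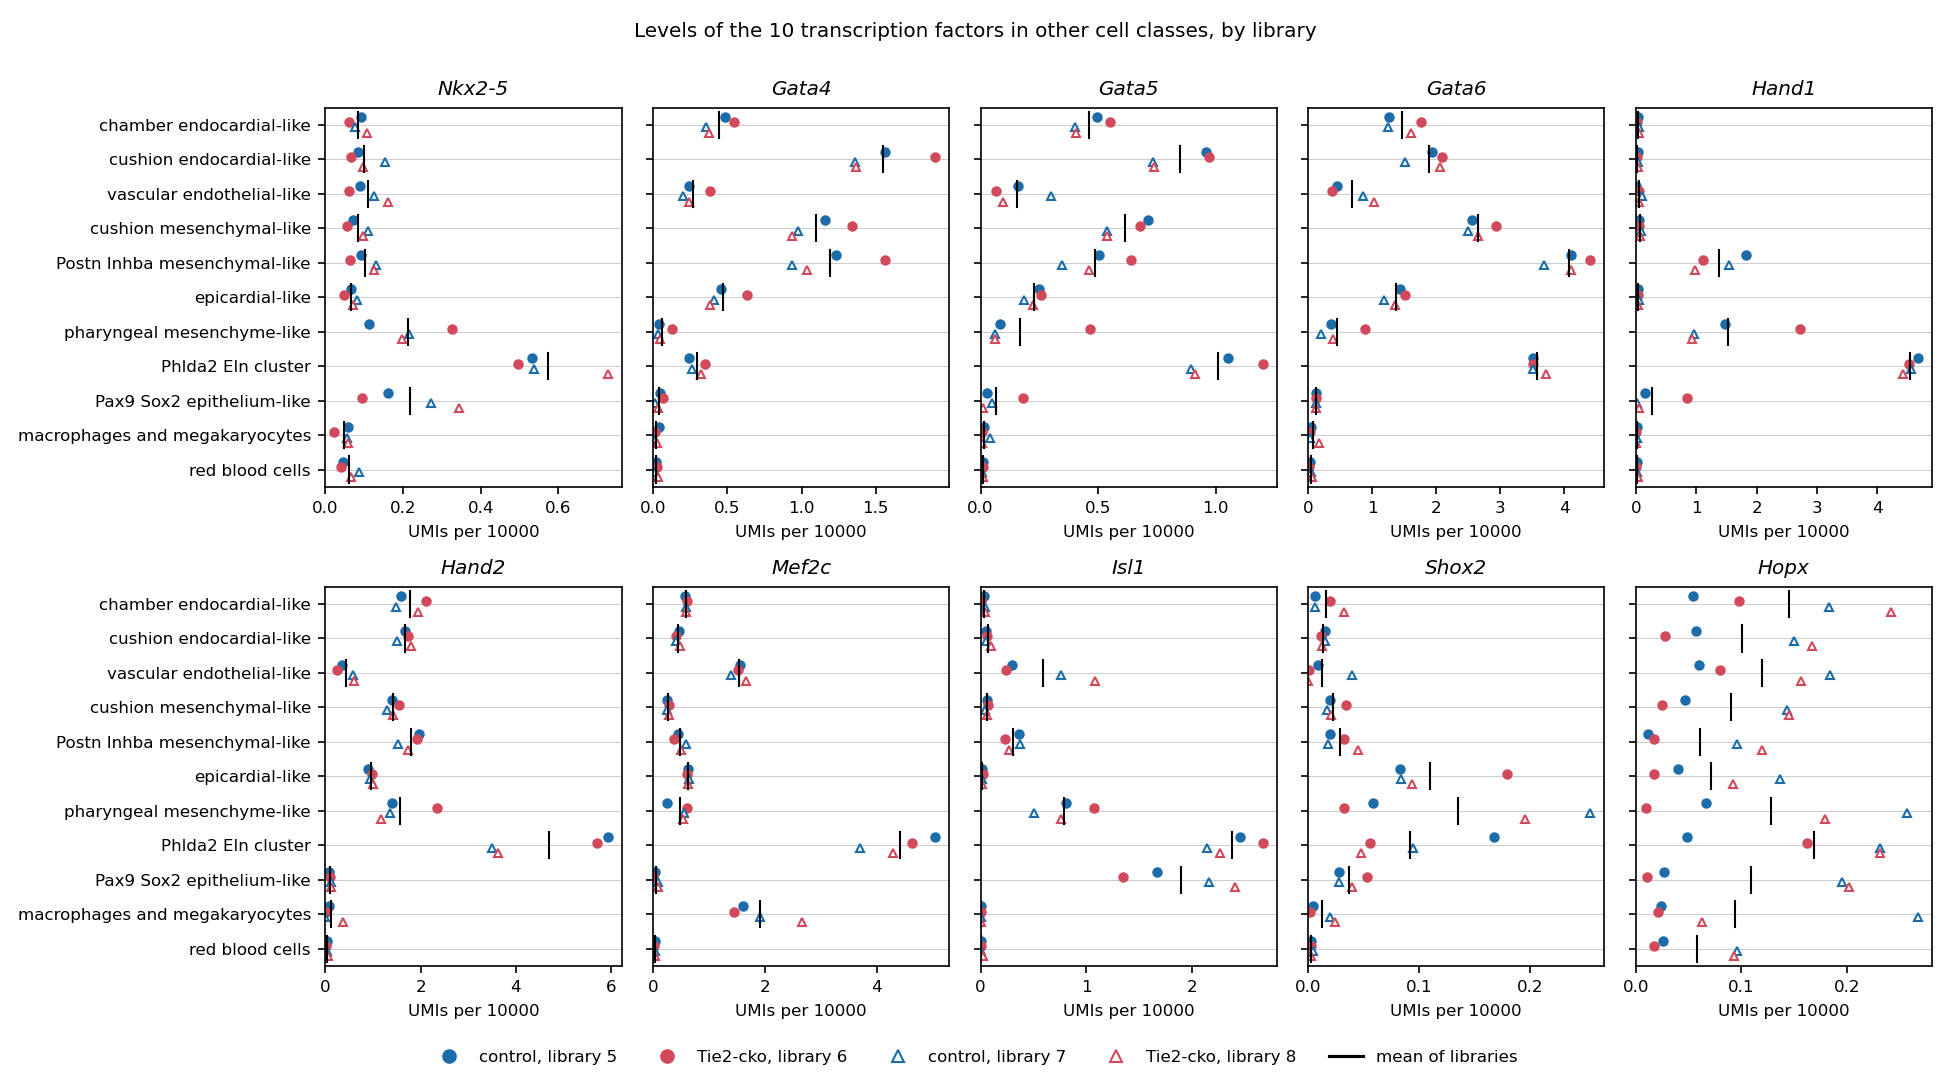
The same plot for 11 classes outside the myocardium, in UMIs per 10000 with an axis from 0 for each gene. Endocardial and mesenchymal classes carry *Gata4*, *Gata6* and *Hand2*. *Mef2c* is highest in the *Phlda2* *Eln* cluster, followed by macrophages and megakaryocytes and by vascular endothelial-like cells. No library exceeds 0.728 for *Nkx2-5* or 0.268 for *Hopx*.

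The members resembled one another in 2 ways. Over 29 cell classes, the Pearson correlation of log2 (CPM + 5), with CPM the UMI count of a gene scaled to a common class total, was 0.93 between *Gata5* and *Gata6*, 0.85 between *Nkx2-5* and *Hopx* and 0.83 between *Gata4* and *Gata5*; the classes share libraries, and the values are descriptions. Among 9265 genes, those most like *Nkx2-5* were *Cox6a2* (r = 0.974), *Cox7a1* (0.967) and *Trim63* (0.965), and those most like *Hopx* were *Adprhl1* (0.972), *Kcng2* (0.961) and *Mov10l1* (0.961). *Shox2* came with *Vsnl1* (0.849), *Slc24a3* (0.846) and *Tulp1* (0.804), and *Hand1* with *Psd* (0.809), *Cxcl12* (0.762) and *Col12a1* (0.744). *Hand2* was closest to *5033428I22Rik* (0.930), *Hand2os1* (0.913) and *Lix1l* (0.878), *Mef2c* to *Atg10* (0.881), *Ifngr2* (0.875) and *Cdkn2d* (0.848), and *Isl1* to *Rimklb* (0.806), *Flywch2* (0.806) and *1600020E01Rik* (0.802). *Gata4* was closest to *Gata5*, *Creb3l2* (0.801) and *Gata6* (0.784). *Gata5* had *1010001N08Rik* (0.869) and *Rmdn2* (0.841) after *Gata6*, and *Gata6* had *1010001N08Rik* (0.878) and *Pofut2* (0.813) after *Gata5*. *Hand2os1* and *1010001N08Rik* lie on the opposite strand of *Hand2* and *Gata6*, as do *Gata5os*, *Rsrc1* and *Hopxos* for *Gata5*, *Shox2* and *Hopx*; whether the counting used strand is not given in the sources used here, and without it these pairs cannot be told apart.

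Single CMs, thinned to 5500 UMIs (11894 cells), gave the second view. *Isl1* and *Shox2* were found together in 126 CMs, 3.98 times the number that independence within each library gives (2.58 to 5.11 per library). *Hand1* and *Shox2* met in 41 CMs against 168 (ratio 0.244), and *Shox2* and *Hopx* in 187 against 355 (0.527). Inside the *Calca* *Sln* cluster *Isl1* and *Shox2* were at 0.997 and *Shox2* and *Hopx* at 0.994. *Nkx2-5* and *Hopx*, which share the working myocardium, were at 1.01 over all CMs. In pharyngeal mesenchyme-like cells *Hand1* and *Isl1* were found together in 149 of 1213 cells, 2.35 times the number under independence (1.79 to 2.91 per library), and *Hand1* and *Shox2* in 3, a ratio of 0.192.

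Each member was compared between *Tie2-cko* and control in every class with at least 20 cells per library, on UMI counts summed per library. This gave 196 tests of members in 21 classes; 14 more were not made because the counts were too low. None of the 196 passed an adjusted p of 0.05 in edgeR, and none did in DESeq2. In simulated data the edgeR test found 0% to 69% of changes of 1 on the log2 scale, depending on the class. The lack of a call therefore does not show that a member was unchanged. At an unadjusted p under 0.05 there were 9, or 4.59%, against 1.62% of all tests of all genes. Calls of any gene were rare: the share was 0% in 14 classes, 0.0889% of genes in the *Osr1* *Fabp4* cluster, 0.0087% in chamber EdCs, 0.0178% in cushion EdCs, 0.0596% in *Postn* *Inhba* mesenchymal-like cells, 0.042% in epicardial-like cells, 0.0219% in the *Phlda2* *Eln* cluster and 0.054% in *Pax9* *Sox2* epithelium-like cells. The genes called were *Tek*, *Mt1* and globin genes, all lower in *Tie2-cko*. Globin genes, the markers of red blood cells, were called in 6 classes, among them the *Postn* *Inhba* mesenchymal-like cells (*Hbb-bt* log2 fold change -2.55); their part in the members' values was not tested.

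In CMs the differences of all members but *Isl1* were smaller than their SEs. The log2 fold change, *Tie2-cko* over control, was -0.01 (SE 0.13) for *Nkx2-5*, 0.02 (0.12) for *Gata4*, -0.04 (0.18) for *Gata5*, 0.05 (0.10) for *Gata6*, 0.00 (0.16) for *Hand1*, 0.06 (0.12) for *Hand2*, 0.02 (0.12) for *Mef2c*, 0.25 (0.12) for *Isl1*, -0.07 (0.29) for *Shox2* and 0.22 (0.47) for *Hopx*, all with an adjusted p of 1. The median of the 10 was 0.02, beside 0.01 for all 15569 genes tested. With the block for library pairs described below, edgeR gave 0.25 for *Isl1* (SE 0.08, adjusted p = 0.245) and 0.25 for *Hopx* (SE 0.07, adjusted p = 0.12). On UMIs summed over CMs, the genotypes of 2 of the 10 members, *Gata6* and *Isl1*, did not overlap, beside 16.7% of all genes tested. By level *Isl1* was 0.132 and 0.13 in the controls and 0.147 and 0.135 in *Tie2-cko*, and *Gata6* overlapped.

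The 9 tests with an unadjusted p under 0.05 lay outside the CMs as a whole. *Hand1* in the *Postn* *Inhba* mesenchymal-like cells was 1.82 and 1.55 in controls and 1.12 and 0.984 in *Tie2-cko* (log2 fold change -0.85, SE 0.16, unadjusted p = 0.000405, adjusted p = 0.408). In AVC-like CMs *Shox2* was 0.141 and 0.118 in controls and 0.276 and 0.204 in *Tie2-cko* (0.85, SE 0.19, adjusted p = 1). *Shox2* in chamber EdCs was at 0.00594 and 0.00583 against 0.0197 and 0.0322, from 4 to 15 UMIs per library in all (2.03, SE 0.49, adjusted p = 0.373). *Gata6* in the same cells was 1.27 and 1.24 in controls and 1.77 and 1.61 in *Tie2-cko* (0.34, SE 0.13, adjusted p = 0.647). In pharyngeal mesenchyme-like cells *Gata6* was 0.36 and 0.193 against 0.885 and 0.387 (1.34, SE 0.39, adjusted p = 1). *Shox2* in *Tie2-cko* also lay above the controls in the *Postn* *Inhba* mesenchymal-like cells, at 0.0323 and 0.0449 against 0.0196 and 0.0178 (1.36, SE 0.49, adjusted p = 1), and below them in the *Phlda2* *Eln* cluster, at 0.0558 and 0.048 against 0.167 and 0.0948 (-1.29, SE 0.48, adjusted p = 1). The others were *Isl1* in the *Postn* *Inhba* mesenchymal-like cells (-0.58, SE 0.20, adjusted p = 1) and *Gata5* in vascular endothelial-like cells (-0.93, SE 0.35, adjusted p = 1). None of the 9 passed the test across all genes. Their libraries did not overlap between the genotypes, but the tests were picked by their p-values, so this is no further evidence. The share of all genes without such overlap was not counted in these classes.

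**Figure D5:**
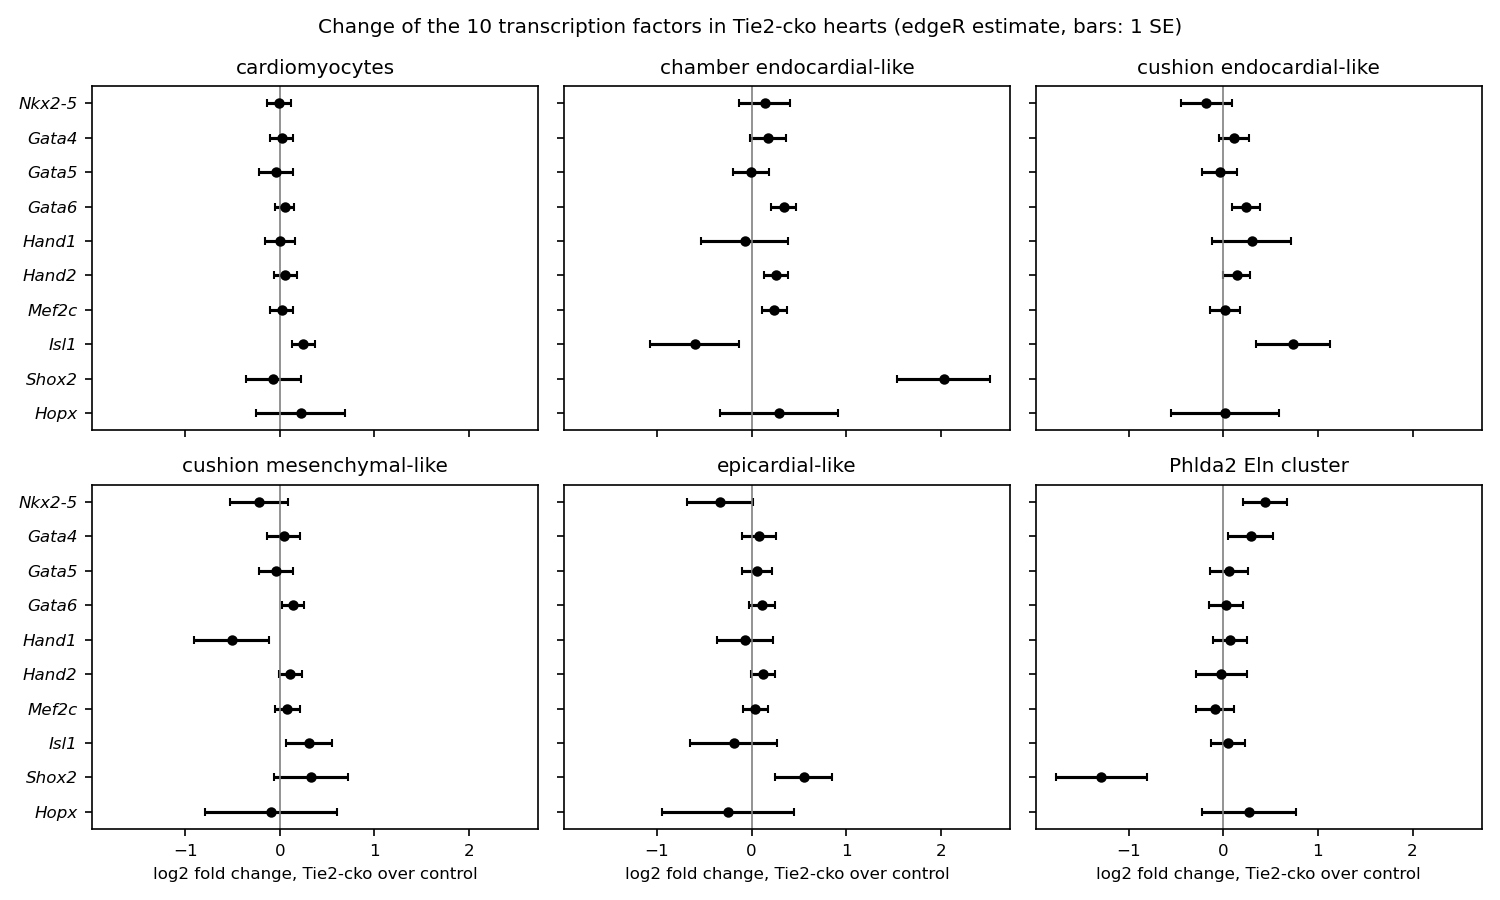
log2 fold change of each gene, *Tie2-cko* over control, by edgeR (points) with bars of 1 SE, in 6 cell classes; a gene without a point was not tested. In CMs the points lie between -0.07 and 0.25, and the widest distances from 0 belong to *Shox2*, with 2.03 in chamber EdCs and -1.29 in the *Phlda2* *Eln* cluster.

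Whether the genotypes differed more in chamber EdCs, where *Tek* was deleted, than in CMs was tested by a class by genotype term with library as a block. It was called for none of the 10 members by edgeR and for 0.397% of 15373 genes. The lowest adjusted p was 0.0697, for *Shox2* (log2 difference 2.11, endocardial minus CM), and 3 members had an unadjusted p under 0.05. Without the filter on low counts *Shox2* passed, with an adjusted p of 0.00391.

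A block that sets libraries 5 and 6 against libraries 7 and 8 compares the genotypes within each pair. The pairs are a split by cell composition and are not given by the labels. With the block, 8 of the 196 tests of members were called, 7 higher in *Tie2-cko* and 1 lower. Of all tests of all genes, 0.297% were called higher and 0.335% lower. At an unadjusted p under 0.05 there were 20.9% of the tests of members against 6.75% of all tests of all genes. *Hopx* in atrial-like CMs had 0.997 and 1.41 in libraries 5 and 6 and 2.03 and 2.67 in libraries 7 and 8 (log2 fold change 0.40, SE 0.09, adjusted p = 0.00508; 0.347% of genes called in that class). Without library 8, in the fit without the block, this difference was -0.13. *Shox2* in AVC-like CMs was called at 0.86 (adjusted p = 0.000381; 1.98% of genes called), and in chamber EdCs *Shox2* at 2.02 (adjusted p = 0.0354) and *Gata6* at 0.34 (adjusted p = 0.0386; 3.59% of genes called). *Hand1* was lower in *Postn* *Inhba* mesenchymal-like cells, at -0.84 (adjusted p = 1.35e-10; 0.725% of genes called). *Hopx* was above its pair's control in both *Tie2-cko* libraries in 7 of 9 CM regions, which all come from the same 4 libraries. By level its genotypes overlapped in each of the 9 regions. The share of all genes with such a pattern was not counted.

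The other calls with the block were in classes where library 6 was highest. In pharyngeal mesenchyme-like cells *Gata5* was 0.0808, 0.465, 0.0616 and 0.0626 in libraries 5, 6, 7 and 8 (log2 fold change 1.44, adjusted p = 0.0189), and *Gata6* had 0.36, 0.885, 0.193 and 0.387 (1.44, adjusted p = 5.99e-09; 0.784% of genes called). *Hand1* in *Pax9* *Sox2* epithelium-like cells was 0.155, 0.855, 0.0168 and 0.0528 (1.84, adjusted p = 5.15e-08; 0.801% of genes called). In the fit without the block, leaving out library 6 turned *Hand1* to -1.11 and brought *Gata5* to 0.07 and *Gata6* to 0.71, and leaving out library 5 brought *Hand1* to 4.24. Library 6 held 54 of the 1312 pharyngeal mesenchyme-like cells and 30 of the 841 *Pax9* *Sox2* epithelium-like cells, the fewest of the 4 libraries in both.

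Partner genes, whose proteins act with the members (such as *Tbx5*, *Tbx20*, *Myocd*, *Srf* and the GATA cofactors *Zfpm1* and *Zfpm2*), gave 220 tests of 12 genes, of which none passed in edgeR and 2 had an unadjusted p under 0.05. In CMs the largest differences among them were those of *Foxh1* (-0.81, SE 0.73, at a level of at most 0.00201), *Zfpm2* (-0.13, SE 0.17) and *Myocd* (-0.08, SE 0.10), and the median was -0.03. *Zfpm2* was 0.14 and 0.163 in controls and 0.157 and 0.147 in *Tie2-cko*, and *Myocd* 0.457 and 0.429 against 0.455 and 0.407, so that the genotypes overlapped for both.

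Of 12 known target genes of the network, 202 tests were made, none passed in edgeR and 9 had an unadjusted p under 0.05. The 3 of largest difference in CMs were lower in *Tie2-cko*. *Nppa*, which encodes atrial natriuretic peptide, was 33.7 and 36.6 UMIs per 10000 in controls and 32.4 and 28.3 in *Tie2-cko* (log2 fold change -0.25, SE 0.11, adjusted p = 1). The ventricular myosin light chain *Myl2* was 55.2 and 48.2 against 50.7 and 43.5 (-0.22, SE 0.12), and *Nppb* was 0.8 and 1.31 against 0.806 and 0.935 (-0.35, SE 0.26). With the block for library pairs 36 tests of targets were called lower and none higher by edgeR, beside 0.335% lower and 0.297% higher of all tests of all genes. They are repeated tests of the same 12 genes in 21 classes of the same 4 libraries, and the CM class includes the CM regions. The 36 are therefore not separate results. Of these 36, 10 were in CMs and their regions and 26 in the 11 other classes, where transcripts of muscle genes can be free RNA from CMs; that part was not tested. Of partners, 2 tests were called higher, both in pharyngeal mesenchyme-like cells, and none lower.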

How the data were processed

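Hearts of 4 libraries (2 control, 2 *Tie2-cko*) were measured by 10x Genomics single-cell RNA sequencing. The authors deposited, per library, UMI counts per gene and barcode, with the barcodes and gene symbols that name the matrix; counts were not normalised. The header of the matrices names Cell Ranger 6.1.2, the submitters' processing notes name mm10, and the study's methods name another Cell Ranger version. The annotation release and the use of strand are not given in the sources used here. All columns had a sample (0 did not).

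Cells with at least 500 genes and 1000 UMIs and at most 10% mitochondrial UMIs were kept. Scrublet (scanpy 1.11.5) ranked doublets, and 0.8% per 1000 barcodes, or 285 to 982 cells per library, were removed. Cells were clustered with Seurat 5.3.0 (resolution 0.8; R 4.3.3) without the 10 genes and their partners; CMs were clustered again, also without cell-cycle genes. Clusters were named from marker lists, and 3 clusters of low UMI counts and 1 CM cluster led by globins were left out. A level is UMIs per 10000 of a cell's total, averaged over the cells of a class in a library, and its SD is over libraries. Thinned shares are shares of cells with a UMI after each cell was thinned to 5500 UMIs. Counting error and spread between libraries set the precision.

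Genotypes were compared with edgeR 4.0.16 (quasi-likelihood test, TMM, filterByExpr) on counts summed per library, in classes of at least 20 cells in each library, with Benjamini-Hochberg adjustment over all genes tested and a threshold of 0.05. The step was tested on simulated data in which 200 genes per class changed by 1 on the log2 scale. It found 60% of them in CMs, 58% in chamber EdCs and 21.5% in the *Calca* *Sln* cluster. Over the classes the share ran from 0% in macrophages and megakaryocytes to 69% in atrial-like CMs. DESeq2 1.42.0, RLE normalisation, no filter, a block for library pairs, stricter cell filters (1500 genes, 5% mitochondrial), 2 times the doublets, resolutions 0.4 and 1.2, and each library left out were the alternatives; counting in the low-UMI clusters and leaving a library out of the levels were added after seeing the data. Python 3.11.15 with numpy 2.4.6, scipy 1.17.1, pandas 2.3.3 and matplotlib 3.10.9 was used otherwise.

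Named genes were the 10 members, *Tek*, those of 12 partner and 12 target genes past the threshold or else the 3 of each list with the largest change in CMs, and the 3 genes most correlated with each member among genes of at least 20 CPM in a class. *Hbb-bt* and *Mt1* were named after their values were seen. The members and lists were chosen with earlier results of these data known.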

Additional observations from a re-analysis of the deposited data

How the results depend on the processing

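Of 247 counts of members called per class under an alternative, 227 stayed at the main count and 20 moved. Without the filter on low counts, 1 member was called in each of the *Irx1* *Irx2* ventricular-like, *Postn* *Inhba* mesenchymal-like, pharyngeal mesenchyme-like and *Pax9* *Sox2* epithelium-like classes, and the class by genotype term was called for 1. With the block for library pairs there was 1 in atrial-like, atrioventricular canal-like, *Postn* *Inhba* mesenchymal-like and *Pax9* *Sox2* epithelium-like cells, and 2 in chamber endocardial-like and pharyngeal mesenchyme-like cells. The labels give the genotypes no shared replicate numbers, so this block is a split by composition. With each library left out the count ran from 0 to 2 in the *Irx1* *Irx2* ventricular-like and pharyngeal mesenchyme-like classes, and from 0 to 1 in the *Osr1* *Fabp4* cluster, vascular endothelial-like, *Postn* *Inhba* mesenchymal-like, epicardial-like and *Pax9* *Sox2* epithelium-like classes; the lone library of a genotype is then assumed to vary like the other genotype. In CMs, leaving out a library turned the sign for 7 members: *Nkx2-5* ran from -0.13 to 0.11, *Gata4* from -0.08 to 0.12, *Gata5* from -0.20 to 0.16, *Hand2* from -0.05 to 0.18, *Mef2c* from -0.06 to 0.11, *Shox2* from -0.49 to 0.26 and *Hopx* from -0.35 to 0.93 on the log2 scale. *Hopx* in atrial-like CMs ran from -0.13 (without library 8) to 0.94, *Hand1* in *Pax9* *Sox2* epithelium-like cells from -1.11 (without library 6) to 4.24 (without library 5), and *Gata4* in CMs was -0.01 with 2 times the doublets removed. *Tek* in cushion EdCs lost its call with the stricter cell filter (-2.49) and at resolutions 1.2 (-2.51) and 0.4 (-1.66). *Gata4* in cushion EdCs was 1.21 UMIs per 10000 at resolution 0.4, and *Hand1* in the *Phlda2* *Eln* cluster was 4.69 with the stricter filter, 5.03 with more doublets removed and 4.44 from summed UMIs. Over all genes, 0 to 7 were called per class, against 3 to 413 with the block, 0 to 20 with DESeq2, 0 to 155 without the filter and up to 161, 57, 97 and 79 without libraries 5, 6, 7 and 8; the cause was not tested. Resolution 0.4 gave values for 15 of 21 classes and more doublets removed for 20.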
